A study of Mus musculus with 12 samples.

Results

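The insulin receptor and the proteins that carry its signal to the nucleus were followed at the mRNA level in mouse liver through 10 genes: Insr, Irs1, Irs2, Pik3r1, Pik3ca, Pdpk1, Akt1, Akt2, Foxo1 and Foxo3. They are defined by their place in the pathway, and they were chosen with earlier results of these data known, so their counts are a description. All 10 were among the 17432 genes of the table and among the 12344 genes with enough counts to be tested. The livers came from wild-type male C57BL/6J mice, a common inbred strain, aged 8 to 10 weeks. Both groups first had 3 days of feeding by day only, with a short daily run to get used to the treadmill. On the next day the Exercise group (6 mice) ran for 3 hours at 14 m/min and the Sedentary group (6 mice) did not run. In both, food was given for 3 hours after a night without it and taken away when the run began. Neither group carried an engineered allele or received a drug or other agent, and in both the livers were collected at the same clock time. Total counts per library ran from 18745379 to 19324461, and levels are given as CPM, counts scaled to library size with TMM factors, which correct for differences in RNA composition.

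Insulin binds its receptor, a tyrosine kinase, which phosphorylates the insulin receptor substrate (IRS) adaptors. These recruit phosphoinositide 3-kinase (PI3K), whose lipid product brings the kinases PDK1 and AKT to the membrane. Active AKT phosphorylates the FOXO transcription factors and keeps them out of the nucleus. In the fasted liver, where insulin is low, nuclear FOXO proteins drive gluconeogenic genes, and they are known to activate Irs2 and Insr as well.

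After exercise, 7 of the 10 genes rose and 0 fell in the quasi-likelihood test of edgeR at an adjusted p under 0.05 (Benjamini-Hochberg method over all genes tested, as for every edgeR adjusted p given here), while Akt1 was lower at an unadjusted p of 0.0321. Among all genes tested, 42.4% passed this test and 21.1% passed it as higher. For 6 of the 10 genes each exercised liver was above each sedentary liver, against 22.3% of all genes without overlap in either direction and 11.7% without overlap and higher. Irs2, Foxo3, Irs1 and Foxo1 rose by a log2 fold change of at least 1, which 2.35% of all genes did. The median log2 fold change was 0.50 over the 10 genes and 0.00 over all genes tested, whose quartiles were -0.21 and 0.21. The largest changes lay in the IRS adaptors and in the FOXO factors. Smaller ones were seen in Pik3ca, Pdpk1 and the receptor gene Insr, the smallest of them, and none passed the test in Pik3r1, Akt1 or Akt2. With libraries scaled by their totals alone, under which the median log2 difference of all genes was -0.10 and 32.1% of calls were higher in place of 49.8%, 6 of the 10 genes rose and Akt1 fell.

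**Figure D1:**
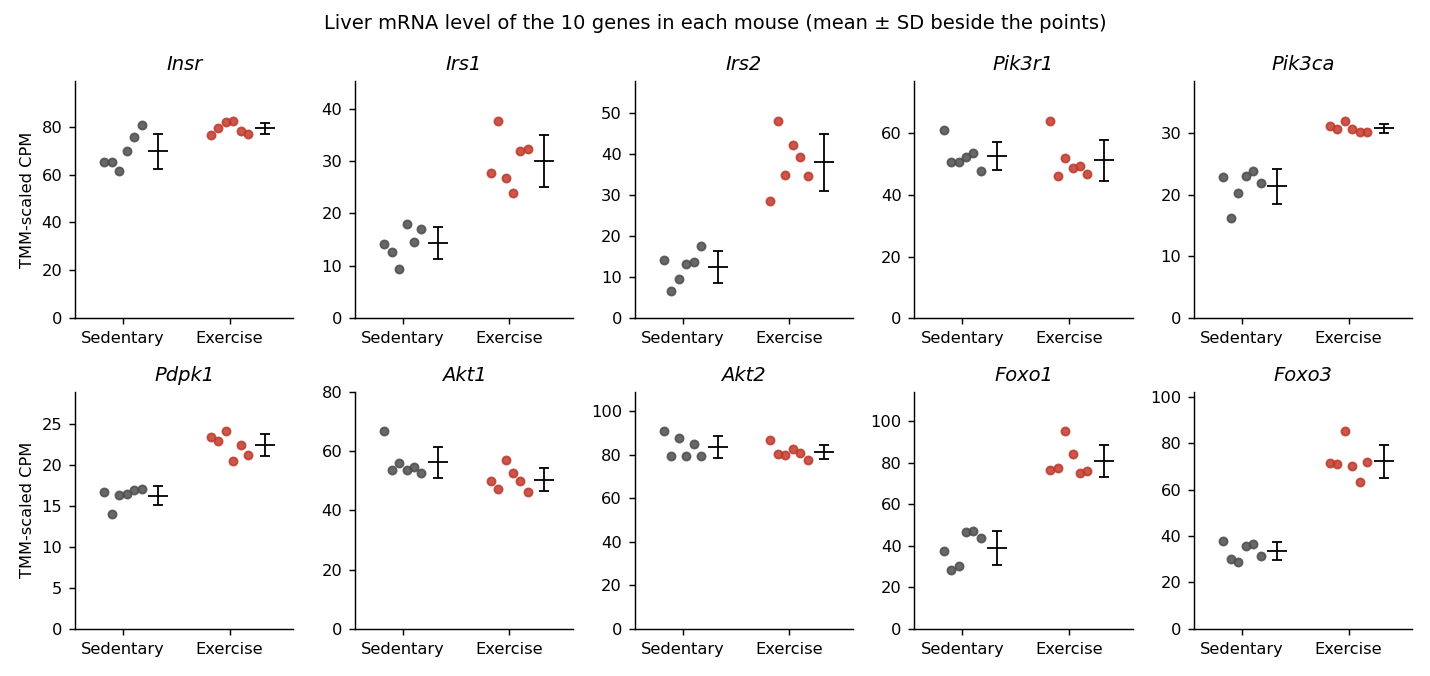
Level of each of the 10 genes in each liver, in TMM-scaled CPM from 0 (sedentary livers in grey, exercised livers in red, n = 6 each), with the mean ± SD beside the points. The groups do not overlap for Irs1, Irs2, Pik3ca, Pdpk1, Foxo1 and Foxo3, and they overlap for Insr, Pik3r1, Akt1 and Akt2.

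**Figure D2:**
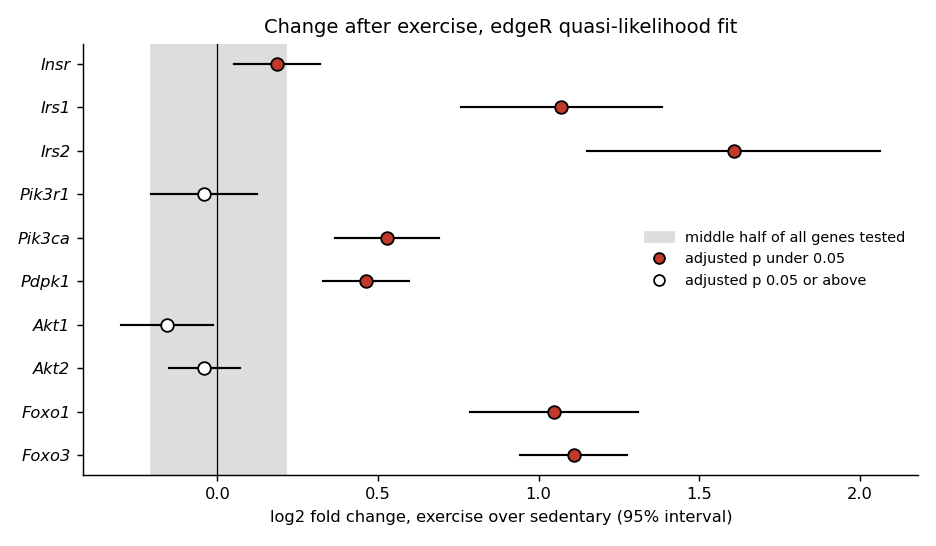
Log2 fold change of each gene, exercise over sedentary, with its 95% interval from the edgeR fit. The grey band runs from the lower to the upper quartile of all genes tested (-0.21 to 0.21), and Irs2 lies farthest from it at 1.61.

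Insr encodes the receptor itself (gene ID 16337). In CPM, the lowest, median and highest values were 61.6, 67.6 and 80.8 in sedentary livers and 76.6, 78.7 and 82.5 in exercised livers. Only 1 sedentary liver, replicate 6, lay above the exercised median, so the groups overlapped in this liver alone. Insr rose by a log2 fold change of 0.18 (standard error 0.0637, edgeR adjusted p = 0.0268), a 1.14-fold change from a mean of 69.7 ± 7.25 to 79.2 ± 2.49 CPM (SD, n = 6). This call depended on single livers and on scaling. It was lost without Sedentary replicate 1, 2 or 3 (edgeR adjusted p = 0.0562, 0.0581 and 0.0680) and when libraries were scaled by their totals alone (log2 fold change 0.09, edgeR adjusted p = 0.280). Igf1r, the closely related receptor for insulin-like growth factor 1, was scarce in these livers. Of the summed FPKM of both receptors (a level per transcript length), Insr made up 98.2% in sedentary and 97.7% in exercised livers.

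Irs1 and Irs2 encode the main IRS adaptors of the liver, and Irs2 is the one known to fall with feeding and rise with fasting. Irs2 (gene ID 384783) stood at 6.63, 13.5 and 17.6 CPM (lowest, median and highest) in sedentary livers and at 28.5, 37.2 and 48.2 CPM in exercised livers. The lowest exercised liver, replicate 1, was thus above the highest sedentary liver, replicate 6, and the lowest of all was Sedentary replicate 2. Irs2 rose 3.05-fold (95% interval 2.22 to 4.19), a log2 fold change of 1.61 (standard error 0.208, edgeR adjusted p = 9.06e-05). Leaving out any 1 liver moved its log2 fold change to between 1.48 and 1.73.

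Irs1 (gene ID 16367) stood at 9.43, 14.4 and 18.0 CPM in sedentary livers and at 23.8, 29.9 and 37.7 CPM in exercised livers. Again no exercised liver reached down to the sedentary range. Its rise was 2.10-fold (95% interval 1.69 to 2.61) or 1.07 on the log2 scale (standard error 0.146, edgeR adjusted p = 6.24e-05). The exact two-sided permutation test over all 924 relabellings of the livers gave p = 0.00216 for Irs1 and for Irs2, the smallest p that 6 livers against 6 allow. Groups without overlap always give this value, as they did for Pik3ca, Pdpk1, Foxo1 and Foxo3, so it only restates the lack of overlap.

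The promoters of both adaptor genes are shown because they share a pair of motifs close to the start of transcription. Each is the RefSeq sequence of the 250 bases before the annotated start on GRCm38.p6, all on the minus strand, and capitals mark the matches. The E-box CACGTG is read by basic helix-loop-helix factors. CAAAACA, which reads TGTTTTG from the other strand, is the core of the insulin response element known from the promoter of Igfbp1, to which FOXO proteins bind. Irs4, a related adaptor gene that was not among the 12344 genes tested, is given for comparison.
Irs1, chr1:82291440-82291689: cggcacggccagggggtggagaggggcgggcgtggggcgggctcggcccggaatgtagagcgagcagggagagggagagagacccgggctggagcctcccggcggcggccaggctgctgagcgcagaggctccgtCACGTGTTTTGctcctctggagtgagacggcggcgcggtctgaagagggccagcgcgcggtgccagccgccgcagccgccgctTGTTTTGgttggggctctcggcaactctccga
Irs2, chr8:11008930-11009179: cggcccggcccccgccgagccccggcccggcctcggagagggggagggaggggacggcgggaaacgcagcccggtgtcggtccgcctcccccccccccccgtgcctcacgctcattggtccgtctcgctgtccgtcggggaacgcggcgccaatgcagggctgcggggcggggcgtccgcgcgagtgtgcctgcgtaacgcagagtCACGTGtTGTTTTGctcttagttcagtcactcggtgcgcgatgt
Irs4, chrX:141725218-141725467: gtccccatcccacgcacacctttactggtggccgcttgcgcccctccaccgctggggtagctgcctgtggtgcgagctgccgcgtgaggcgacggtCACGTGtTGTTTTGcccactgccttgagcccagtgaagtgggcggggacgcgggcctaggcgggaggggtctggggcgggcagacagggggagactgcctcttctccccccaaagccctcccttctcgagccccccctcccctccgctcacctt
Positions are counted back from the start, with -1 for the base before it. In Irs1 the E-box began at -115 and overlapped an element core at -111, with another core at -32. In Irs2 the E-box began at -44 and the core at -37. Irs4 held the same letters as Irs2 from the E-box to the end of the core, at -154 and -147. On either strand, 6.02% of the 32851 RefSeq promoters held the E-box and 5.56% held the core, and 7 promoters (0.0213%) held both with starts within 10 bases of each other. This spacing was noticed after the sequences had been read, and a match of letters does not show that a factor binds there. Promoters of 9 of the 10 genes were matched, with 15 starts in all, and no promoter of Insr was searched. The other motifs searched were the FOXO motif GTAAACA (3.17% of promoters) and the cAMP response element TGACGTCA (1.55%). Of these, 1 match was found, a FOXO motif at -161 of 1 of the starts of Akt1, whose level did not pass the test.

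PI3K is a dimer of a catalytic subunit, here p110 alpha encoded by Pik3ca, and a regulatory subunit, chiefly p85 alpha encoded by Pik3r1, which both stabilizes and restrains it. Pik3ca (gene ID 18706) stood at 16.2, 22.4 and 23.9 CPM (lowest, median and highest) in sedentary livers. All 6 exercised livers lay between 30.1 and 32.0 CPM, with a median of 30.6 CPM. The gene rose 1.44-fold, by 0.53 on the log2 scale (standard error 0.0770, edgeR adjusted p = 3.31e-05). Pik3r1 (gene ID 18708) stood at 47.8, 51.6 and 60.9 CPM in sedentary and at 46.1, 49.1 and 64.1 CPM in exercised livers. These ranges lay over each other, and the highest liver of each group was its replicate 1. The log2 fold change of Pik3r1 was -0.04 (95% interval -0.21 to 0.12, edgeR adjusted p = 0.696).

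PDK1, encoded by Pdpk1 (gene ID 18607), phosphorylates AKT in its activation loop. Pdpk1 stood at 14.03, 16.6 and 17.1 CPM (lowest, median and highest) in sedentary and at 20.6, 22.7 and 24.2 CPM in exercised livers. Sedentary livers lay close together except for replicate 2, the lowest. Even so, each exercised liver was above each sedentary one, and Pdpk1 rose 1.38-fold, by 0.46 on the log2 scale (standard error 0.0642, edgeR adjusted p = 2.00e-05).

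Akt1 and Akt2 encode the AKT kinases found in most tissues, and Akt2 is the form tied most closely to the glucose response to insulin. Akt2 (gene ID 11652) stood at 79.3, 82.3 and 90.9 CPM in sedentary and at 77.5, 80.7 and 86.6 CPM in exercised livers. These ranges overlapped, and the log2 fold change was -0.04, with a 95% interval from -0.15 to 0.07 (edgeR adjusted p = 0.573). Akt1 (gene ID 11651) stood at 52.5, 54.2 and 66.8 CPM in sedentary and at 46.1, 49.8 and 57.0 CPM in exercised livers. The groups overlapped, and Sedentary replicate 1 stood above all others. The log2 fold change of Akt1 was -0.16 (95% interval -0.30 to -0.02, edgeR adjusted p = 0.070). Without Sedentary replicate 1 it was -0.10 (edgeR adjusted p = 0.185), and without Exercise replicate 3 it was -0.19 (edgeR adjusted p = 0.0302). Under other scalings Akt1 passed the threshold as lower, with a log2 fold change of -0.18 by the upper quartile (edgeR adjusted p = 0.0341) and -0.26 by library totals alone (edgeR adjusted p = 0.00504).

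FOXO1 and FOXO3 are FOXO factors that act together in the liver on gluconeogenic and stress genes. Foxo1 (gene ID 56458) stood at 28.6, 40.6 and 47.3 CPM (lowest, median and highest) in sedentary livers and at 75.02, 77.1 and 95.2 CPM in exercised livers. Foxo3 (gene ID 56484) stood at 28.7, 33.6 and 38.1 CPM in sedentary and at 63.2, 71.2 and 85.1 CPM in exercised livers. For both genes, Exercise replicate 3 was the highest liver and the groups lay well apart. Foxo1 rose 2.07-fold, or 1.05 on the log2 scale (standard error 0.122, edgeR adjusted p = 1.40e-05). Foxo3 rose 2.16-fold, or 1.11 on the log2 scale (standard error 0.0797, edgeR adjusted p = 2.43e-08), the smallest adjusted p of the 10 genes. Leaving out any 1 liver gave log2 fold changes of 0.97 to 1.12 for Foxo1 and of 1.06 to 1.15 for Foxo3.

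Whether partners changed to the same extent was tested by the log2 ratio of their counts within each liver, for 4 pairs, with an exact two-sided permutation test and Benjamini-Hochberg adjustment over the 4. The ratio of Irs2 to Irs1 ran from -0.92 to 0.05 in sedentary and from 0.04 to 0.83 in exercised livers. These ranges overlapped slightly at their edges, and the mean rose by 0.57 (exact permutation p = 0.00433, adjusted p = 0.00866), so Irs2 gained on Irs1. The ratio of Pik3r1 to Pik3ca ran from 1.13 to 1.65 in sedentary and from 0.59 to 1.04 in exercised livers, without overlap. Its mean fell from 1.31 ± 0.198 to 0.72 ± 0.162 (SD, n = 6, exact permutation p = 0.00216, adjusted p = 0.00866). The mean ratio of Akt2 to Akt1 was 0.58 ± 0.0727 in sedentary and 0.69 ± 0.112 in exercised livers (SD, n = 6), and the difference did not pass the test (exact permutation p = 0.0606, adjusted p = 0.0808). Only Exercise replicate 3, at 0.49, lay within the sedentary range. Without it the groups no longer overlapped, so the unadjusted exact permutation p of 0.00433 was the smallest possible and fixed by that choice. No conclusion is drawn from it. The mean ratio of Foxo1 to Foxo3 was 0.20 ± 0.235 in sedentary and 0.16 ± 0.0743 in exercised livers (SD, n = 6, exact permutation p = 0.688), so no difference between the FOXO factors in their change was detected.

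**Figure D3:**
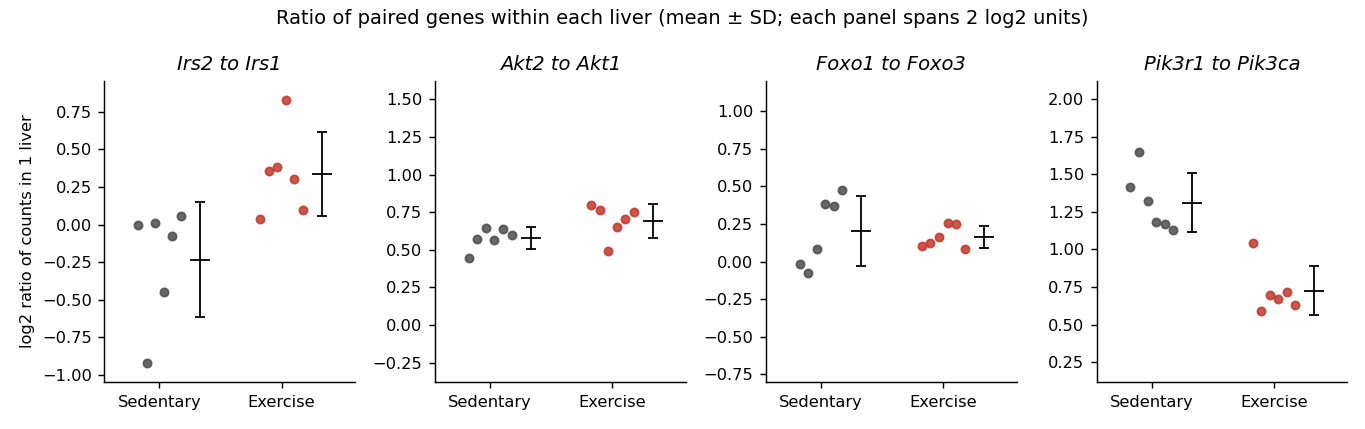
Log2 ratio of the counts of paired genes in each liver (points, n = 6 a group) with the mean ± SD, each panel spanning the same number of log2 units. Only Pik3r1 to Pik3ca, which falls from 1.31 to 0.72, is without overlap between the groups. Irs2 to Irs1 rises from -0.23 to 0.34 with a slight overlap. The other ratios overlap as well, that of Akt2 to Akt1 through Exercise replicate 3.

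Levels of different genes can be compared only per transcript length, so FPKM was used for their order. In sedentary livers Akt2 stood highest at 28.7 ± 1.79 FPKM and Akt1 next at 22.9 ± 2.45 FPKM (SD, n = 6). Pik3r1 at 8.38 ± 0.704, Insr at 7.72 ± 0.783 and Foxo1 at 7.31 ± 1.40 FPKM followed, each within the spread of its neighbour. Below them, and apart from each other, came Foxo3 at 5.02 ± 0.556, Pik3ca at 3.08 ± 0.344 and Pdpk1 at 2.47 ± 0.129 FPKM. The adaptors were lowest, with Irs2 at 1.91 ± 0.589 and Irs1 at 1.62 ± 0.353 FPKM, and with Irs2 above Irs1 in 4 of the 6 livers and below Pdpk1 in 5. The pathway was therefore uneven at rest, with the mRNA of the AKT kinases at the top and that of the adaptors at the bottom.

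In exercised livers Akt2 at 26.0 ± 1.28 and Akt1 at 19.2 ± 1.04 FPKM were still highest (SD, n = 6). Foxo1 at 14.2 ± 0.965 and Foxo3 at 10.1 ± 0.731 FPKM stood above Insr at 8.21 ± 0.304 and Pik3r1 at 7.73 ± 0.897 FPKM in all 6 livers. Irs2 at 5.47 ± 1.12 FPKM was above Pik3ca at 4.16 ± 0.110 FPKM in 5 of the 6 livers, all but replicate 1. Irs1 at 3.20 ± 0.616 and Pdpk1 at 3.16 ± 0.184 FPKM were not separated, with Irs1 higher in 3 of the 6 livers. FPKM was scaled by library totals, under which the median log2 difference of all genes was -0.09 and not 0, so exercised levels lie slightly lower in FPKM than in TMM-scaled CPM.

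**Figure D4:**
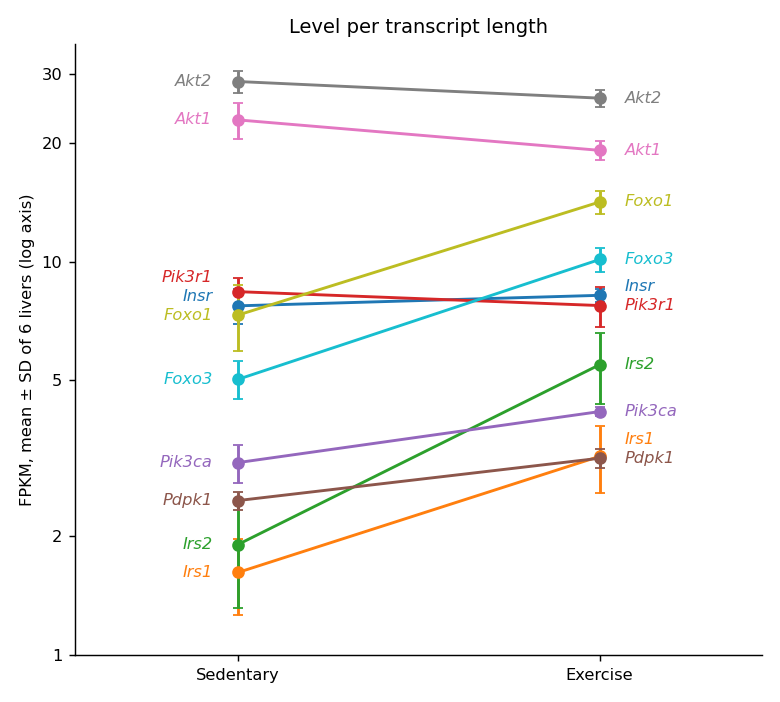
Mean FPKM of each gene in sedentary and exercised livers on a log axis, with lines joining the values of 1 gene. Foxo1, Foxo3 and Irs2 climb in the order, Irs1 reaches the level of Pdpk1, and Akt2 and Akt1 stay highest.

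Within families, the summed level and its make-up were read from FPKM. The summed adaptors Irs1 and Irs2 stood at 3.53 ± 0.866 FPKM in sedentary and 8.66 ± 1.57 FPKM in exercised livers (SD, n = 6), and Irs2 made up 53.5 ± 6.62% and 63.0 ± 4.44% of them. FOXO genes, Foxo4 and Foxo6 included, summed to 17.6 ± 2.38 and 31.2 ± 1.57 FPKM, with Foxo1 at 41.3 ± 2.94% and 45.4 ± 1.44%. Of these families the adaptors gained more in fold than the FOXO genes, and the sums were not tested. Among the class IA catalytic subunits, the share of Pik3ca was 47.96 to 56.2% in sedentary and 58.5 to 61.8% in exercised livers, without overlap.

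Some livers stood low in many of these genes. Across the 7 genes that rose, Sedentary replicates 2 and 3 were the lowest pair of sedentary livers in all 7. The mean ranks of these livers were 1.43 and 1.57 of 6, against 4.00 to 5.00 for the other sedentary livers. How often this pair was lowest among all genes that rose was not counted, so the pattern cannot be called particular to these genes. Among exercised livers, replicate 3 was the highest in 4 of the 7 genes. Known FOXO targets followed this in part. Sedentary replicate 3 was among the lowest pair in 10 of the 11 FOXO targets that rose and replicate 2 in 7 of them. Of the 9 insulin-induced genes, replicate 2 was among the highest pair in 8, while replicate 3 was among the highest pair in 3 and the lowest pair in 3. Among exercised livers, replicate 1 was in the highest pair for 8 of the 9 insulin-induced genes and in the lowest pair for 7 of the 11 FOXO targets. Fasn, which encodes fatty acid synthase, was highest in Sedentary replicate 2 at 2713 CPM, and Pck1, which encodes the gluconeogenic enzyme PEPCK, was lowest there at 474 CPM. Leaving out both livers, an alternative chosen after seeing the data, left 6 of the 10 genes higher and took away the call of Insr (log2 fold change 0.12, edgeR adjusted p = 0.164). Over all genes, 4171 passed the test in that fit, against 5229 with all livers. The log2 fold changes were then 1.37 for Irs2, 0.91 for Irs1, 0.88 for Foxo1 and 1.02 for Foxo3. Each was smaller than with all livers, which follows from leaving out the lowest sedentary livers, and each still passed the test.

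In 9 of the 10 genes the SD of log2 CPM was smaller in exercised than in sedentary livers, as it was in 59.1% of all genes tested, most plainly for Pik3ca (0.0327 against 0.202 in sedentary livers) and Insr (0.0449 against 0.147). Pik3r1 was the exception. Without Sedentary replicates 2 and 3 the number was 5 of the 10 genes, against 53.3% of all genes. The difference in spread was not tested.

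Likeness to other genes was measured as the root mean squared difference of centred log2 CPM over the 12 livers, among 11536 genes, where smaller is closer. These values carry the group difference and the depth the livers share, so they describe a pattern only. The closest genes to Irs2 were Rasgef1b (0.207), Cpeb2 (0.259) and Tmc7 (0.260). For Irs1 they were Khnyn (0.153), Rnf169 (0.165) and Cep85l (0.177). Foxo1 was closest to Slc25a32 (0.0897), Lurap1l (0.0994) and Cep85l (0.109), and Foxo3 to Fchsd2 (0.0997), Cnnm4 (0.105) and Tnfrsf1b (0.108). Irs2 thus had no neighbour as near as the FOXO genes had. The measure is not scaled for the size of a change or for spread, and of the 10 genes Irs2 had the largest of both. Its larger distances therefore do not set its pattern apart. Between the 10 genes themselves, Pik3ca and Pdpk1 were the closest pair at 0.0923, followed by Pik3r1 and Akt2 at 0.0995, Akt1 and Akt2 at 0.103, and Foxo1 and Foxo3 at 0.159.

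The rest of the pathway was read from 10 lists with 103 genes, 96 of them tested. On these lists 32 genes rose and 22 fell, so 56.3% passed the test against 42.4% of all genes, and the median log2 fold change was 0.07. Scaled by library totals alone, 28 rose and 27 fell. The lists were written with earlier results of these data known, so their counts are a description.

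Upstream of PI3K, 5 of the 7 other receptors and adaptors tested rose and the other 2 did not pass the test, with a median log2 fold change of 0.23. The share passing was 71.4%, against 42.4% of all genes tested. Sh2b2, an adaptor that binds the receptor, rose by 0.44 from 2.03 ± 0.372 to 2.75 ± 0.512 CPM (SD, n = 6, edgeR adjusted p = 0.0348), a call lost in 9 of the 12 fits that left out 1 liver. Of the 8 brakes on the receptor and IRS proteins, 2 fell and 6 did not pass. Ptprf, a receptor tyrosine phosphatase, fell by 0.48 on the log2 scale from 123 ± 20.6 to 88.1 ± 10.2 CPM (edgeR adjusted p = 0.00162). The other was Grb14, an inhibitor of the receptor kinase, which fell by 0.36 on the log2 scale and is named after its values were seen.

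Around PI3K, 2 of the 9 other subunits rose and 3 fell, so 55.6% passed the test against 42.4% of all genes. Pik3c2a, a class II enzyme, rose by 0.46 (edgeR adjusted p = 8.53e-04). Pik3r3, a lesser regulatory subunit, fell by 0.76 on the log2 scale from a mean of 1.67 CPM (edgeR adjusted p = 0.00698), a call lost without Sedentary replicates 2 and 3 (edgeR adjusted p = 0.0548). Of the 7 lipid phosphatases and other brakes of PI3K, 3 rose and 4 did not pass the test. This share of 42.9% was close to that of all genes. Inpp4a, which removes a phosphate from a PI3K product, rose by 1.16 from 17.3 ± 4.42 to 38.5 ± 3.38 CPM (SD, n = 6, edgeR adjusted p = 2.61e-05). Inpp4a and the catalytic subunit Pik3ca therefore rose in the same livers.

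Around AKT, 3 of the 8 genes on the list of AKT and mTORC2 (the complex that also phosphorylates AKT) fell and 5 did not pass. The largest decrease was that of Prr5, which fell by 0.54 on the log2 scale (edgeR adjusted p = 0.00384). On this list 37.5% passed, against 42.4% of all genes. Of the 9 brakes on AKT, 7 rose and 1 fell, a share of 88.9% passing. Trib3, a pseudokinase that binds AKT, rose by 1.14 from 1.86 to 4.10 CPM (edgeR adjusted p = 1.74e-05), and the protein phosphatase scaffold Ppp2r1a fell by 0.35 on the log2 scale (edgeR adjusted p = 6.44e-05). Of the 12 AKT substrates, 3 rose and 9 did not pass. Foxo4, another FOXO factor, rose by 0.49 from 14.7 ± 2.02 to 20.6 ± 0.893 CPM (SD, n = 6, edgeR adjusted p = 1.28e-04). Among 9 other PDK1 substrates, 1 rose and 3 fell, a share of 44.4% close to that of all genes. Related kinases went opposite ways. Sgk1 rose by 1.08, from 18.6 to 39.4 CPM (edgeR adjusted p = 2.09e-05), and Sgk2 fell by 0.86 on the log2 scale, from 41.4 to 22.8 CPM (edgeR adjusted p = 7.14e-05).

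Downstream, 11 of 18 known FOXO targets rose and 1 fell, with a median log2 fold change of 0.68. The share passing was 66.7%, against 42.4% of all genes. Igfbp1, a secreted binding protein for insulin-like growth factors, rose by 2.76 from 81.2 ± 26.1 to 551 ± 150 CPM (SD, n = 6, edgeR adjusted p = 3.12e-05). Pck1 rose by 1.93 from 1214 ± 591 to 4633 ± 586 CPM, and Ppargc1a, a coactivator of gluconeogenic genes, by 1.88 from 8.89 ± 2.68 to 32.6 ± 5.01 CPM (edgeR adjusted p = 5.31e-04 and 5.09e-06). The target that went against the list was Gadd45a, a growth arrest and DNA damage gene, which fell by 1.55 on the log2 scale from 3.57 to 1.21 CPM. Insulin-induced genes fell in 9 of 9 cases, with a median log2 fold change of -1.10. Among all 12344 genes tested, 2626 passed the test as lower. Pnpla3, a lipase of lipid droplets, fell by 2.69 on the log2 scale from 53.0 ± 31.6 to 8.24 ± 1.24 CPM. Fasn fell by 2.36 on the log2 scale, and Srebf1, the lipogenic transcription factor, fell by 1.94. These lists at the end of the pathway had larger median changes than the 8 lists within it.

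**Figure D5:**
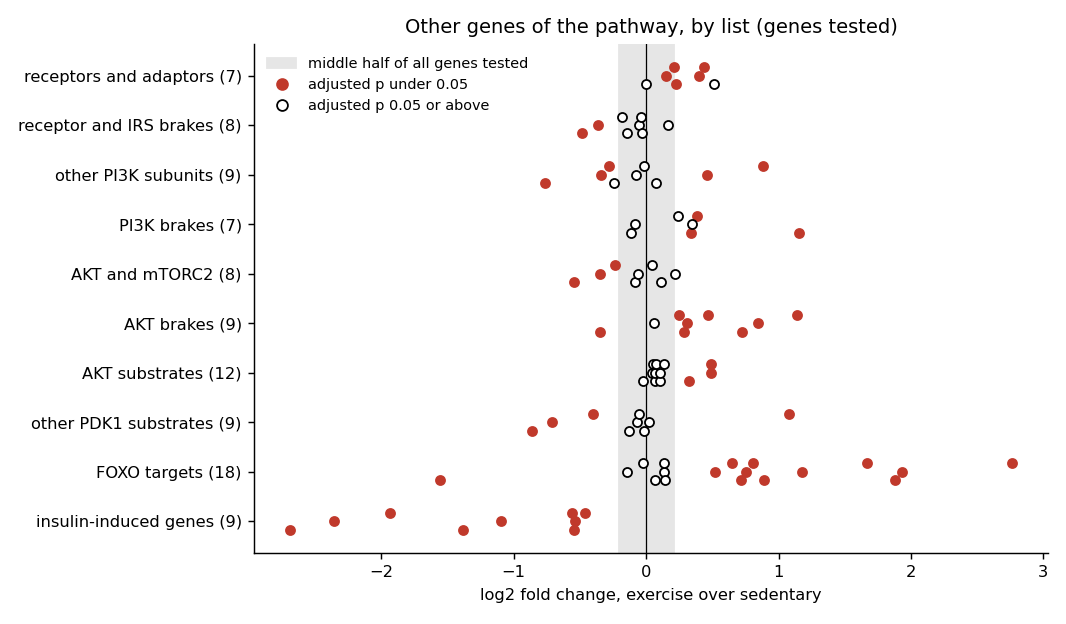
Log2 fold change of each tested gene on the 10 pathway lists, exercise over sedentary, with red points for adjusted p under 0.05 and the grey band from the lower to the upper quartile of all genes tested. The 9 insulin-induced genes all lie below 0, and 7 of the 9 AKT brakes are red and above 0.

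The tissue was checked against cell markers. Their sums are in CPM scaled by library totals alone, without the TMM factors used for the other CPM values. Hepatocyte markers summed to between 119600 and 148000 CPM in sedentary and between 136600 and 147000 CPM in exercised livers. Of the 6 tested, 2 rose, where 21.1% of all genes passed the test as higher. Of 27 tested markers of other cells, 2 rose and 3 fell, against 42.4% of all genes called. Endothelial markers held both rises and 1 of the falls, and stellate cell markers held the other 2 falls. Summed Kupffer cell markers ran from 64.3 to 112 CPM and from 69.5 to 104 CPM, endothelial markers from 135 to 180 and from 129 to 197 CPM, stellate cell markers from 269 to 407 and from 256 to 394 CPM, and cholangiocyte markers from 30.5 to 42.9 and from 32.8 to 39.95 CPM, in sedentary and exercised livers. Markers of lymphocytes summed to 3.74 to 7.59 and 3.48 to 5.77 CPM, and those of adipocytes, muscle and pancreas to 7.24 to 12.9 and 6.27 to 8.27 CPM. With this scaling the ranges overlapped for every cell type. In bulk tissue, fewer cells of a type and less RNA per cell cannot be told apart. Their part in the changes of the 10 genes was not tested.

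Some reads may belong to overlapping genes. On GRCm38 (GENCODE vM21), Irs2 lies on chromosome 8 from 10984681 to 11008458, on the minus strand, and 9530052E02Rik overlaps it on the plus strand. Irs1, on chromosome 1 from 82233101 to 82291416, overlaps Gm9747 in the same way, and antisense genes overlap Insr, Pdpk1 and Foxo1. Foxo1 lies on chromosome 3 from 52268336 to 52353221 and Foxo3, with no such neighbour, on chromosome 10 from 42181841 to 42276755. Whether counting used strand is not given in the sources used here, so reads from these partners cannot be told apart. The livers came from separate mice, and all values are mRNA levels, with no measure of protein, phosphorylation or insulin.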

How the data were processed

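Liver mRNA of 12 mice was sequenced, 6 Sedentary and 6 Exercise as named by the sample labels. The authors deposited, per gene and library, an estimated count and FPKM, which corrects for transcript length and library total. The submitters' processing notes name Bowtie2 2.3.4.3, RSEM 1.3.1 and mm10. Of the estimated counts, 31.3% were not whole and were rounded. Of 66 library pairs, 0 were identical. In R 4.3.3, edgeR 4.0.16 scaled the counts with TMM (trimmed mean of M values) factors, kept 12344 genes (filterByExpr, minimum count 10) and compared Exercise with Sedentary by its robust quasi-likelihood test, with p-values adjusted by Benjamini-Hochberg and a threshold of 0.05. The biological coefficient of variation came to 11.3%. Libraries held 18745379 to 19324461 counts, and counting error weighs most on genes of few CPM. Some genes of the lists are counted but not reported here by name. The 10 genes and all lists were picked when earlier results of these data were known. Within each pathway list, the gene with the largest change in each direction among those passing the test with a mean of at least 1 CPM was named, with up to 3 each way for FOXO targets and insulin-induced genes, and for members with a log2 fold change of at least 1 the 3 genes most like them. Alternatives were other filters, scalings and thresholds, DESeq2 1.42.0, limma-voom and limma 3.58.1 on log2 FPKM, a replicate block and leaving out each liver. The alternatives for the named pathway genes were chosen after seeing the data. Python 3.11.15, scipy 1.17.1 and pandas 2.3.3 did the rest.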

Additional observations from a re-analysis of the deposited data

Results flagged for a closer look

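Of 64 gene and ratio groups of 6 livers examined, 9 held a liver far from the others by Dixon's criterion (the gap to the next liver over the whole range). Chance would give about 3.2 if the groups were independent. They share the same livers, so this number is a rough guide only. Among the 10 genes, Pik3r1 stood at 64.1 CPM in Exercise replicate 1 against 51.9 CPM in the next liver, Akt1 at 66.8 CPM in Sedentary replicate 1 against 56.2 CPM, and Pdpk1 at 14.03 CPM in Sedentary replicate 2 against 16.4 CPM. The log2 ratio of Pik3r1 to Pik3ca was 1.04 in Exercise replicate 1, against 0.72 in the next liver. This is the liver in which Pik3r1 itself stood apart, so the ratio is not a separate case.

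Of the other pathway genes, Fasn stood at 512 CPM in Exercise replicate 1 against 274 CPM in the next liver, and Ppargc1a at 42.1 CPM in Exercise replicate 3 against 32.5 CPM. Trib3 stood at 5.74 CPM in Exercise replicate 6 against 4.00 CPM. Sgk1 stood at 24.4 CPM in Sedentary replicate 5 against 18.5 CPM, and Sh2b2 at 1.76 CPM in Exercise replicate 4 against 2.65 CPM.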

How the results depend on the processing

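Across all alternatives the number of the 10 genes that passed the test stayed between 6 and 8, and for single genes 207 of 220 alternative values kept direction and side of the threshold. The number lower was 1 in place of 0, always Akt1, under upper quartile scaling, library totals alone and limma on log2 FPKM with 0.1 or 1 added, and 0 to 1 with 1 liver left out. Insr was lost under library totals (log2 fold change 0.09) and both FPKM fits (0.09 and 0.08). With 1 liver left out, Pik3r1 ran from -0.11 to 0.00, changing sign without Sedentary replicate 1 (0.0024). The difference in the ratio of Akt2 to Akt1 then ran from 0.0903 to 0.157. It passed the unadjusted exact permutation test only without Exercise replicate 3, the liver through which the groups overlapped. That of Foxo1 to Foxo3 ran from -0.10 to 0.01, changing sign without Sedentary replicate 6 (0.014). The cause was not tested. Library totals alone gave 32.1% of calls as higher and FPKM 31.4% and 31.6%, against 49.8% with TMM. Pathway calls ran from 45 at an adjusted p of 0.01 to 55, against 54.

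Same-numbered livers deviated together in 2 of 6 pairs (correlation over 0.1), so the number was not taken as a pairing. A replicate block gave 7 of the 10 genes and 52 pathway genes, and 4956 calls over all genes against 5229. Counts limit Irs2 most, with 139 counts in its lowest liver.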

Other observations

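Count and FPKM together imply an average transcript length for each gene and liver, which moves if the mix of isoforms does. Isoforms themselves were not analysed here. For Pik3r1, whose transcripts range widely in length, it varied from 6.11 to 6.74 kb between livers, for Pdpk1 from 6.63 to 6.94 kb and for Pik3ca from 7.05 to 7.25 kb. For Akt2 the highest value was 1.96% above the lowest.

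Besides Irs1, Irs2 and Irs4, the promoters with an E-box and an insulin response element core starting within 10 bases belonged to Klf11, Pcbp1, Pyroxd1 and 1700019P21Rik. Klf11 rose by a log2 fold change of 0.59 (edgeR adjusted p = 0.00111), while Pcbp1 fell by 0.19 and Pyroxd1 by 0.31 on the log2 scale (edgeR adjusted p = 0.0310 and 0.0359). These genes were thus found on both sides, and the motif pair was picked out after the Irs1 and Irs2 values were seen.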
